A study of Mus musculus with 20 samples.

Results

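The genes described here are those whose share of nascent transcripts was at least 3 times smaller after mouse erythroleukemia cells were induced to mature than before. They are 157 of the 8397 genes in the authors' intron table, and they were chosen by their own read sums: at least 100 intron reads over both conditions, and a ratio of uninduced to induced share of at least 3, with 0.5 added to each sum. Ribosomal protein genes named Rpl or Rps were left out. The loss of reads is therefore what defined the members and is given as a description, with no test.

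MEL (murine erythroleukemia) cells are a leukemic red cell precursor line that starts to make hemoglobin when dimethyl sulfoxide (DMSO) is added. The uninduced group was wild-type MEL cells with no inducer, and the induced group the same line after 5 days in 2% DMSO. In both groups RNA was taken from the chromatin pellet, depleted of polyadenylated and ribosomal RNA, and read with PacBio long-read instruments, which enriches RNA that is still being made. Per group there were 2 replicates on 2 instruments, making 4 of the 20 samples each, and the deposited tables hold only 1 pooled line per intron and condition. The other 12 samples (cells with an inserted human HBB gene, and PRO-seq, run-on sequencing of engaged polymerases) were not analysed here. The 157 genes lie on every chromosome but Y and are all protein coding.

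A long read of nascent RNA shows how far the polymerase had travelled and which introns behind it had already been removed. Each intron then has a co-transcriptional splicing efficiency (coSE), the share of reads across the intron that are spliced. Its NIC is the share of first-step intermediates, RNAs whose upstream exon has been cleaved off but not ligated, when these are counted together with spliced reads. As red cell precursors mature they stop dividing, condense the nucleus and turn most of their transcription over to hemoglobin, heme and membrane genes. Genes of growth, translation, energy metabolism and the progenitor state are known to be turned down in that process.

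The uninduced pool held 416379 intron reads and the induced pool 279371, a long read being counted at each intron it covers. Members took 39900 of these before induction, 9.58% (Wilson 95% interval 9.49 to 9.67), and 5211 after it, 1.87% (interval 1.82 to 1.92). The 14 erythroid marker genes were all present and together went from 686 to 7796 reads, while none of the myeloid, B cell, T cell and fibroblast markers had a line in the table. Of 5 megakaryocyte markers 3 were present, with Pf4 at 80 and 10 reads and Itga2b at 26 and 202. In a bulk pool, fewer cells that express a gene and less RNA per cell cannot be told apart. With 1 pool per condition there is no replicate spread, so each test below compares a pair of pools and not the conditions. Intervals cover at most counting error and treat intron reads as independent. As a long read counts at each intron it covers, intervals on reads added over introns can be too narrow.

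Of the 1692 genes with at least 100 reads, 188 reached a ratio of 3, which is 11.1%. Without the 69 Rpl and Rps genes, of which 31 reached it, the members were 157 of 1623 genes, or 9.67%. Since the rule used this contrast, nothing is read from these counts. The median ratio of the members was 4.46, against 1.04 for all 1692 genes, and 132 genes had a ratio of at most 1/3. Most members lay near the limit: 90 had a ratio from 3 to 5, 43 from 5 to 10 and 24 of at least 10. Just inside it stood Slc30a7, with 123 and 27 reads, and Snx5, with 96 and 21. Just outside stood Mrps14 and Fam234b, each with 82 and 18 reads. The plot of reads per gene shows the members as the lower edge of a continuous cloud, with a small set far below it.

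**Figure D1:**
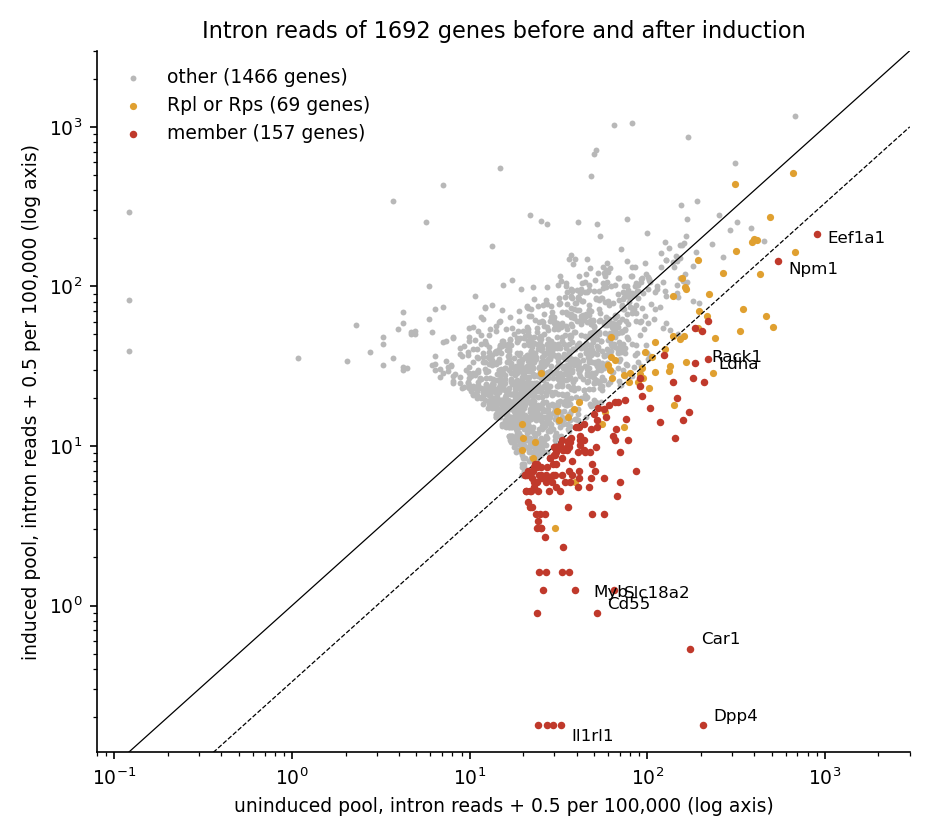
Intron reads per 100,000 of each pool, with 0.5 added to the reads of each gene, for 1692 genes with at least 100 reads, on log axes (uninduced across, induced up). Red points are members, orange points Rpl or Rps genes and grey points the rest; the solid line marks equal shares and the dashed line a ratio of 3. The 157 members lie below the dashed line, Dpp4 and Car1 farthest from it at high uninduced levels, and Eef1a1 and Npm1 at the top of the group.

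The members with the largest ratios had few or no induced reads. Dpp4, which encodes a membrane peptidase known as CD26, had 857 reads before induction and 0 after it, over 25 introns. At its deepest intron, the first, there were 77 and 0 reads, at least 17.2-fold lower when the floor is taken as 3 counts. Car1, the gene of carbonic anhydrase 1, had 727 and 1 reads. Its first intron had 342 and 1 reads, a ratio of 229 with an exact binomial 95% interval from 40.9 to 9090. Per 100000 reads of the uninduced pool these genes had 206 and 175, so both had been well covered.

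A further 4 members had no induced read. Il1rl1, the receptor of interleukin 33, had 135 uninduced reads, Muc13, a membrane mucin, 122, and Lgals1, the sugar-binding protein galectin 1, 113. Nme2, a nucleoside diphosphate kinase, had 100, and a read-through gene, Gm20390, overlaps it on the same strand, so its reads cannot be assigned to it alone. With the same floor at their deepest introns, the induced pool was at least 5.82-fold lower for Il1rl1, 8.72-fold for Muc13 and for Lgals1, and 6.04-fold for Nme2. The exact binomial lower limits of the 95% interval were smaller, 13.7 for Dpp4, 4.40 for Il1rl1, 6.76 for Muc13 and Lgals1 and 4.58 for Nme2. These genes were thinner than Dpp4, so their lower bounds are smaller although all of them are listed at 0.

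Others kept a trace of reads. Cd55, which protects cells from complement, had 215 and 2 reads, and Slc18a2, a vesicular monoamine transporter, 269 and 3. Ptbp3, a splicing regulator, had 162 and 3, Arhgap15, a GTPase-activating protein, 99 and 2, and Poln, a DNA polymerase that shares its strand with Haus3, 107 and 3. Myb, the transcription factor that keeps blood progenitors proliferating, had 150 and 4 reads. At intron 6 of Myb, its deepest, 23 and 1 reads gave a ratio of 15.4 (interval 2.51 to 636). All 7 Myb introns with at least 10 reads over both pools were above a ratio of 3, as were all 24 of Dpp4 and all 12 of Slc18a2. With so few induced reads in these genes, this follows largely from the sums that chose them.

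The members with the most reads belong to the machinery of protein synthesis and to glycolysis. Eef1a1, the factor that brings aminoacyl-tRNA to the ribosome, had 3773 uninduced and 591 induced reads, a ratio of 4.28. Npm1, the nucleolar chaperone nucleophosmin, had 2258 and 400 reads, a ratio of 3.78. Aldoa and Ldha, the glycolytic enzymes aldolase A and lactate dehydrogenase A, had 919 and 168 reads (ratio 3.66) and 914 and 98 reads (ratio 6.23). Rack1, a scaffold protein of the small ribosomal subunit, had 773 and 152 reads, a ratio of 3.40. Also in this group was Tdrd9, a helicase known from the germ line, with 870 and 70 reads. Several of these genes, Eef1a1, Npm1 and Aldoa among them, have processed copies elsewhere in the genome, and how reads that fit several places were treated is not given in the sources used here.

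**Figure D2:**
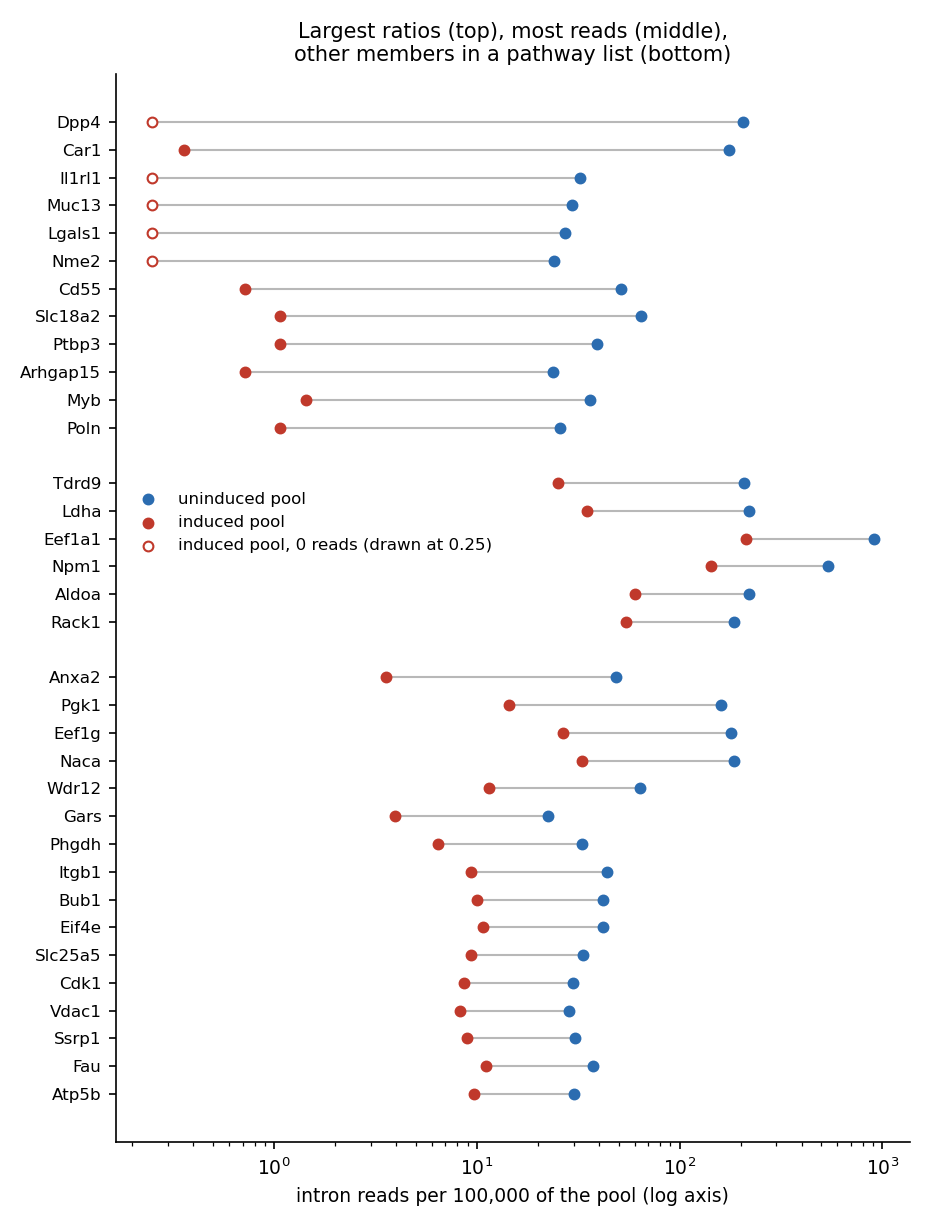
Intron reads per 100,000 of each pool on a log axis for the 12 members of largest ratio, most others of the 8 with most uninduced reads, and most remaining members of the pathway lists. Blue points are the uninduced pool and red points the induced pool; open red points had 0 induced reads and are drawn at 0.25 because a log axis has no zero. The top group drops to the left edge, while Eef1a1 still had 212 reads per 100,000 after induction.

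The pathway lists held 24 of the 157 members. Of all genes outside the Rpl and Rps families 9.67% were members, and as the rule made these counts nothing is read from a list's share. Of 30 translation genes with at least 100 reads 7 were members, among them Eef1a1, Rack1, Eef1g, a subunit of the same elongation complex (750 and 74 reads), Naca, which binds nascent chains at the ribosome (771 and 92), Eif4e, the cap-binding factor (174 and 30), and Fau, which encodes a ribosomal protein fused to a ubiquitin-like protein (155 and 31). The median ratio of those 30 genes was 1.69, and Eif3d, an initiation factor subunit, went the other way with 145 and 281 reads. Of 18 nucleolar and ribosome biogenesis genes 2 were members, Npm1 and Wdr12 (267 and 32), and the median was 1.32. A ratio above 1 was found in 21 of the 30 translation genes and 12 of the 18 nucleolar genes, beside 51.7% of all 1692 genes, and a ratio of at least 3 in 7 and 2 of them.

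Glycolysis had 3 members of 9 genes, with a median ratio of 2.64. Pgk1, phosphoglycerate kinase, stood farthest out at 663 and 40 reads, 159 and 14.3 per 100000, followed by Ldha and Aldoa. Pkm and Gpi1, which encode further enzymes of that pathway, had ratios of 2.36 and 2.23, under the limit, and Pfkl was lower before induction, with 103 and 135 reads. The list of mitochondrial and solute transport genes, which also holds respiratory chain and ATP synthase subunits, had 3 members of 8, all near the limit: Slc25a5, the ADP/ATP carrier (139 and 26), Vdac1, the outer membrane channel (118 and 23), and Atp5b, an ATP synthase subunit (125 and 27). Amino acid enzymes had 2 of 9, the serine synthesis enzyme Phgdh (138 and 18) and the glycyl-tRNA synthetase Gars (93 and 11).

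Among mitotic genes 2 of 15 were members. Cdk1, the kinase that drives entry into mitosis, had 124 and 24 reads and Bub1, a spindle checkpoint kinase, 174 and 28. The median of that list was 1.50, and Top2a, the topoisomerase of dividing cells, had 1047 and 788 reads. None of the 17 DNA replication genes, 18 chaperones, 10 cytoskeletal genes and 18 hnRNP and SR splicing factors with at least 100 reads was a member, their medians being 1.15, 1.37, 0.58 and 0.81. The chromatin list gave 1 of 10, Ssrp1, a histone chaperone subunit (127 and 25).

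All 3 immune and surface genes with at least 100 reads were members: Lgals1, Anxa2, a membrane-binding annexin (203 and 10), and Itgb1, the integrin beta 1 chain (182 and 26). The other 17 genes of that list in the table had under 100 reads; 16 had a ratio above 1, beside 53.6% of all 6579 genes with 1 to 99 reads, among them Ptprc, the leukocyte antigen CD45 (96 and 0 reads), and Itga4, an integrin alpha chain (16 and 8), and Cd47 was lower before induction (16 and 36). Of the progenitor list only Myb had enough reads. Of 12 thinner genes of that list 9 had a ratio above 1, such as the transcription factors Fli1 (23 and 0) and Runx1 (29 and 9), and 3 were below 1: Ccnd2 (6 and 22), Ccnd3 (2 and 6) and Mybl2 (3 and 11). In the list of erythroid maturation genes 27 had at least 100 reads, none was a member, and 18 had a ratio of at most 1/3, with a median of 0.18.

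The lower gene sums were spread over most introns of the members. Of 1162 member introns with at least 10 reads over both pools, 903 (77.7%) had a ratio of at least 3 of their own and 4 were under 1. Among 142 members with at least 3 such introns, 61 had every one of them at 3 or more. The rule also used these reads, so this describes how the sums were made up. The introns of a gene also share long reads, so they do not count as separate evidence. Members had a median of 11 annotated introns, against 14 for the 1623 genes, and 22 of them (14.0%) had 1 to 4 introns, against 6.48% of the 1466 other genes.

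Before induction, the typical intron of the members was spliced about as fully as that of the other genes. The rule used only the sum of spliced and unspliced reads, so coSE in the uninduced pool is another measure of these reads. Over 1088 member introns of 150 genes with at least 10 uninduced reads the median coSE was 0.952 and the mean 0.876, beside 0.931 and 0.853 over 8894 introns of other genes. With reads added together, 90.2% of member reads were spliced (interval 89.9 to 90.5) and 85.7% of those of other genes (interval 85.5 to 85.8), a sum in which deeply read introns weigh most. All reads were spliced at 403 of the member introns, 37.0% (interval 34.2 to 40.0), and at 37.0% of the introns of other genes. A median depth of 19 reads limits what a single intron can show. Introns of up to 100 nt had a median of 0.818 in members and 0.818 in other genes. Of the added reads at these introns 90.0% and 80.3% were spliced. In members, Eef1a1 introns 2 to 7, with 360 to 746 uninduced reads each, weigh heavily in that sum. Introns over 5000 nt had a median of 1 in both.

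In 25 member introns (2.30%) coSE was under 0.2, beside 2.10% of those of other genes. The 5 lowest with at least 20 reads lay in 4 genes. In Idh3g, a subunit of the mitochondrial isocitrate dehydrogenase, intron 3 was spliced in 0 of 34 uninduced and 0 of 10 induced reads and intron 2 in 0 of 27 and 0 of 9. These introns are present in 2 of 4 and in 1 of 3 annotated transcripts that span them. Its intron 1 was spliced in 16 of 18 uninduced reads, so the neighbouring introns of this gene differed widely. Intron 9 of Ero1l, an oxidase of the endoplasmic reticulum, was spliced in 1 of 20 uninduced reads. Intron 1 of Pttg1, which encodes securin, was spliced in 3 of 52, a coSE of 0.0577, and intron 1 of Muc13 in 3 of 39, a coSE of 0.0769.

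The deposited splice sites of these introns, and of the 5 with the highest NIC described next, are shown to let the letters be read beside the values. No site sequence was at hand for introns 2 and 3 of Idh3g. Each 5′ site has 9 bases and each 3′ site 23, on the gene's strand (GRCm38), with the first or last 2 bases of the intron in capitals and the authors' score for the site given after them in the text.
Pttg1 intron 1 (chr11:43425682-43426200, minus strand) 5′ site: tcgGTgagt
Pttg1 intron 1 3′ site: tattcaggtctctcccttAGagt
Muc13 intron 1 (chr16:33794133-33794428, plus strand) 5′ site: gagGTaagg
Muc13 intron 1 3′ site: attgcctttgcctctatcAGtta
Ero1l intron 9 (chr14:45294538-45295971, minus strand) 5′ site: aagGTacgt
Ero1l intron 9 3′ site: tttttttcttttaatttcAGaga
Ces2g intron 10 (chr8:104967457-104967759, plus strand) 5′ site: aacGTgagt
Ces2g intron 10 3′ site: tgtctttctcatgacaccAGtta
Car1 intron 3 (chr3:14770904-14776217, minus strand) 5′ site: gagGTaatg
Car1 intron 3 3′ site: ttacatgtcgcctctttcAGctt
Pttg1 intron 4 (chr11:43421266-43422892, minus strand) 5′ site: tagGTaaaa
Pttg1 intron 4 3′ site: ttggcttccctttgtggcAGact
Acsl5 intron 15 (chr19:55291219-55291417, plus strand) 5′ site: cagGTgggt
Acsl5 intron 15 3′ site: gaatatatgctatattctAGgtc
Dpp4 intron 9 (chr2:62372868-62374365, minus strand) 5′ site: aagGTctct
Dpp4 intron 9 3′ site: tggtttttccccccccctAGgca
The 5′ scores of these 3 introns with low coSE, 11.1 for Pttg1, 10.3 for Muc13 and 10.8 for Ero1l, lay above the median of 8.82 over 730 member introns. The 3′ scores were 6.93, 6.61 and 9.83 beside a median of 8.93. The introns of Pttg1 and Muc13 lie in the 5′ UTR and that of Ero1l between coding exons.

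Car1 carried the most intermediates. Its intron 3, of 5314 nt between coding exons, had 53 intermediates among 220 intermediates and spliced reads in the uninduced pool, a NIC of 0.241. Its intron 1 had 0 of 311 and its intron 4 had 7 of 160. Intron 3 had no induced read, so its NIC cannot be compared. Of the member introns with at least 20 such reads, the highest NIC was at intron 10 of Ces2g, a carboxylesterase, with 9 of 21 (0.429). Car1 intron 3 came next, then intron 4 of Pttg1 with 5 of 21 (0.238), intron 15 of Acsl5, a fatty acid activating enzyme, with 7 of 31 and intron 9 of Dpp4 with 4 of 20. The 5′ site of that Dpp4 intron had a score of 0.90, while those of Ces2g, Car1 and Acsl5 were 9.54, 8.73 and 8.56. That of Pttg1 intron 4 was 6.02, so of these 5 introns only that of Ces2g lay above the member median of 8.82. The 3′ scores were 4.83 for Ces2g, 8.84 for Car1, 7.07 for Pttg1, 7.26 for Acsl5 and 10.95 for Dpp4.

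With reads of all member introns added, intermediates were 664 of 24146 in the uninduced pool, 2.75% (interval 2.55 to 2.96), over 730 introns of 130 genes. The same share was 2.70% over 4838 introns of other genes. NIC was above 0 at 286 member introns, 39.2%, and at 35.7% of the introns of other genes. This difference was not tested, nor was its relation to depth. Member introns had a median of 16 intermediates plus spliced reads, and those of other genes 14.

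Nearly all member introns had the usual ends. Of 730 with a deposited sequence 725 began with GT and 728 ended with AG. The 5 exceptions were picked out for their letters and not by their values.
Eef1a1 intron 2 (chr9:78480421-78480510, minus strand) 5′ site: gagGCaagt
Rack1 intron 2 (chr11:48801835-48802272, plus strand) 5′ site: aacGCaagt
Selenbp1 intron 4 (chr3:94937394-94937954, plus strand) 5′ site: aagGCatgt
Cip2a intron 10 (chr16:49005848-49007049, plus strand) 5′ site: taaATatcc
Cip2a intron 10 3′ site: gtatcttaaccaaatgtaACctc
Vezt intron 6 (chr10:93990288-93993516, minus strand) 5′ site: aaaATatcc
Vezt intron 6 3′ site: cggccttaacctaatttaACcta
Selenbp1 encodes a selenium-binding protein, Cip2a an inhibitor of the phosphatase PP2A and Vezt a protein of cell junctions. The first 3 begin with GC, the best known variant of the GT start, and the last 2 begin with AT and end with AC, the ends known for a class of introns removed by the minor spliceosome. GC starts made up 0.411% of member introns and 0.689% of those of other genes, AT starts 0.274% and 0.103%. coSE before induction was 0.963 at Eef1a1 intron 2 (746 reads), 0.807 at Rack1 intron 2 (109 reads) and 0.571 at Selenbp1 intron 4 (70 reads). At the AT introns it was 0.571 for Cip2a and 0.857 for Vezt, on 14 reads each. The GC introns of Eef1a1 and Rack1 are also among those whose coSE fell.

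Across conditions, coSE could be compared at only 76 member introns of 23 genes, those that kept at least 10 reads in the induced pool. The median difference, induced minus uninduced, was 0, and the mean was -0.05, beside 0 and 0.01 over 4327 introns of other genes. Of the 76 introns 37 were lower in the induced pool, 32 higher and 7 equal. By Fisher's exact test, two-sided with Benjamini-Hochberg adjustment over all 4403 introns of the table, 10 of the 76 passed the threshold of 0.05. All 10 fell. Of all introns tested, 1.61% passed and 1.25% passed downward. The rule summed the same spliced and unspliced reads, and spliced reads make up 90.2% of the members' uninduced sum, so the members' count is not read against those shares. The test itself compares the split of an intron's reads given their number in each pool. The 10 introns lie in 3 genes, Eef1a1, Rack1 and Aldoa. A long read can cover several introns, so the introns of a gene are not independent of each other.

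**Figure D3:**
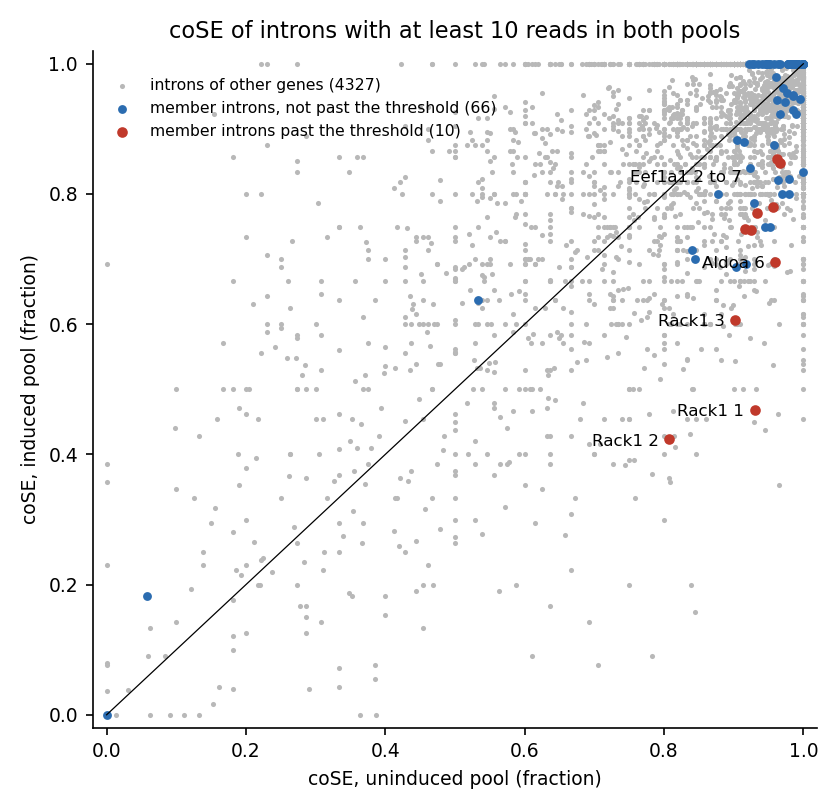
coSE in the uninduced pool (across) and the induced pool (up) for 4403 introns with at least 10 reads in both, as fractions; the line marks equal values. The 10 member introns past the threshold (red) lie below the line, the 3 of Rack1 lowest; the other 66 member introns (blue) lie mostly near the upper right corner.

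In Eef1a1 coSE fell at introns 2 to 7 and not at intron 1. Intron 1, of 950 nt in the 5′ UTR, was spliced in 686 of 707 uninduced and 79 of 82 induced reads, 0.970 and 0.963 (adjusted p 1 by Fisher's exact test). At intron 2, the GC intron, 718 of 746 and 82 of 96 reads were spliced, 0.963 and 0.854 (adjusted p 0.00971). At intron 4 it was 446 of 466 and 71 of 91, 0.957 and 0.780, the smallest adjusted p of the gene at 0.000134. The remaining 4 introns went from between 0.917 and 0.966 to between 0.744 and 0.847, with adjusted p from 0.00177 to 0.0373. Of the 6 calls, that of intron 7 was lost at a minimum of 5 reads per pool (adjusted p 0.0895 by Fisher's exact test), and those of introns 2 and 7 with no minimum (0.0884 and 0.321). Introns 2 to 7 are all between coding exons and 77 to 99 nt long. Their unspliced reads lay between 4.80 and 7.93 per 100000 before and between 5.01 and 7.88 after induction, introns 3 and 4 being higher and introns 2, 5, 6 and 7 lower. The spliced reads were lower at each of them, such as 97.5 and 22.9 per 100000 at intron 6.

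In Rack1 the first 3 introns fell and the later ones did not pass. Intron 1 (chr11:48800573-48801662) was spliced in 120 of 129 uninduced reads, 0.930 (interval 0.873 to 0.963), and in 15 of 32 induced reads, 0.469 (interval 0.309 to 0.636), with an adjusted p of 1.24e-05. Intron 2, the GC intron, went from 88 of 109 to 11 of 26, 0.807 and 0.423 (adjusted p 0.0252), and intron 3 from 101 of 112 to 17 of 28, 0.902 and 0.607 (adjusted p 0.0361). The calls of introns 2 and 3 were lost at a minimum of 5 reads per pool (adjusted p 0.0614 and 0.0866 by Fisher's exact test) and with no minimum (0.220 and 0.311), that of intron 1 was not. Introns 4, 5 and 6 had coSE of 0.923, 0.922 and 0.990 before and 0.840, 1 and 0.923 after induction. Each of the 3 introns that fell holds an annotated small nucleolar RNA gene on the same strand, Gm25296, Snord96a and Snord95 in that order; none of the other 7 introns past the threshold holds or overlaps another annotated gene. Unspliced reads at Rack1 intron 1 were 2.16 per 100000 before and 6.09 after induction. Whether reads of these small RNAs entered the coSE of Rack1 was not tested.

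Aldoa had 1 intron past the threshold. Intron 6 (chr7:126796125-126796216) went from 119 of 124 to 16 of 23 spliced reads, 0.960 and 0.696 (adjusted p 0.0337). The call was lost at a minimum of 5 reads per pool (adjusted p 0.0804 by Fisher's exact test) and with no minimum (0.288). Its neighbour, intron 5, differed by nearly as much, 0.917 and 0.692 on 133 and 26 reads, and did not pass (adjusted p 0.160). The other 5 introns of Aldoa with a test had differences, induced minus uninduced, from -0.195 to -0.0224 and did not pass. In Npm1, with up to 64 induced reads per intron, no intron passed. Its 10 coSE values lay between 0.961 and 0.995 before and between 0.944 and 1 after induction. The tested introns of Ldha and Naca were at 0.967 or above before induction and at 0.923 or above after it.

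**Figure D4:**
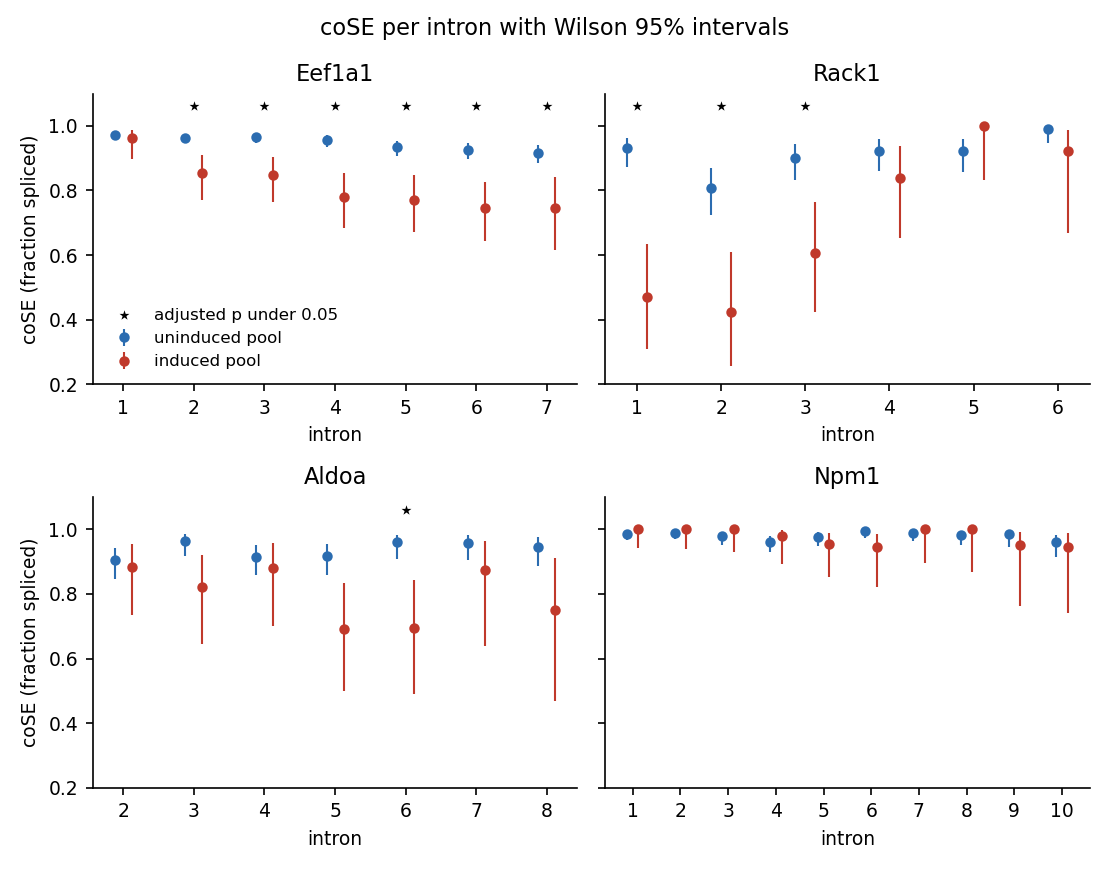
coSE of each tested intron of Eef1a1, Rack1, Aldoa and Npm1 in the uninduced pool (blue) and induced pool (red), with Wilson 95% intervals; the vertical axis starts at 0.2, and stars mark an adjusted p under 0.05. The intervals of the pools separate at introns 2 to 7 of Eef1a1, 1 to 3 of Rack1 and 5 and 6 of Aldoa, and overlap along Npm1.

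Spliced and unspliced reads of the members were also compared separately. Of 72 members with at least 20 unspliced reads over both pools, 50 had a ratio of at least 3 in the unspliced reads as well, 36 (50.0%) had a smaller ratio for unspliced than for spliced reads, and 2 were under 1. The same order held in 328 of 856 other genes (38.3%); the sum that chose the members is mostly spliced reads, so nothing is read from this difference. Those 2 were Rack1, with 711 and 102 spliced and 62 and 50 unspliced reads, and Ptma, a small acidic nuclear protein, with 361 and 53 spliced and 17 and 13 unspliced reads. Eef1a1 had 3590 and 484 spliced and 183 and 107 unspliced reads, unspliced ratio 1.15, and Aldoa 860 and 135 and 59 and 33, ratio 1.19. In Ptma the coSE differences, induced minus uninduced, were -0.156, -0.202 and -0.216 at introns 2, 3 and 4, with unadjusted p from 0.0220 to 0.0340 and adjusted p from 0.436 to 0.514, and did not pass.

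In some other members the unspliced reads went with the spliced ones. Npm1 had 43 and 7 unspliced reads, a ratio of 3.89 beside 3.78 for spliced reads. Myb had 45 and 0 unspliced reads, Car1 83 and 0, and Dpp4 52 and 0. Idh3g, with its mostly unspliced introns, had 152 and 28 unspliced and 64 and 12 spliced reads, ratios of 3.59 and 3.46. In Pdhb, a subunit of pyruvate dehydrogenase, spliced reads were 80 and 1 and unspliced reads 19 and 7, so the spliced ratio was the larger, as in Eef1a1. Ankrd28 had the same order, with 250 and 7 spliced and 41 and 9 unspliced reads. The opposite split was seen in Ripor1, with 79 and 27 spliced and 51 and 0 unspliced reads, and in Gnas, the gene of a stimulatory G protein subunit, with 120 and 34 against 52 and 2. Pdhb, Ankrd28, Ripor1 and Gnas were named after their values were seen. For members with hardly any induced read, the small unspliced count follows from the sum that chose them.

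**Figure D5:**
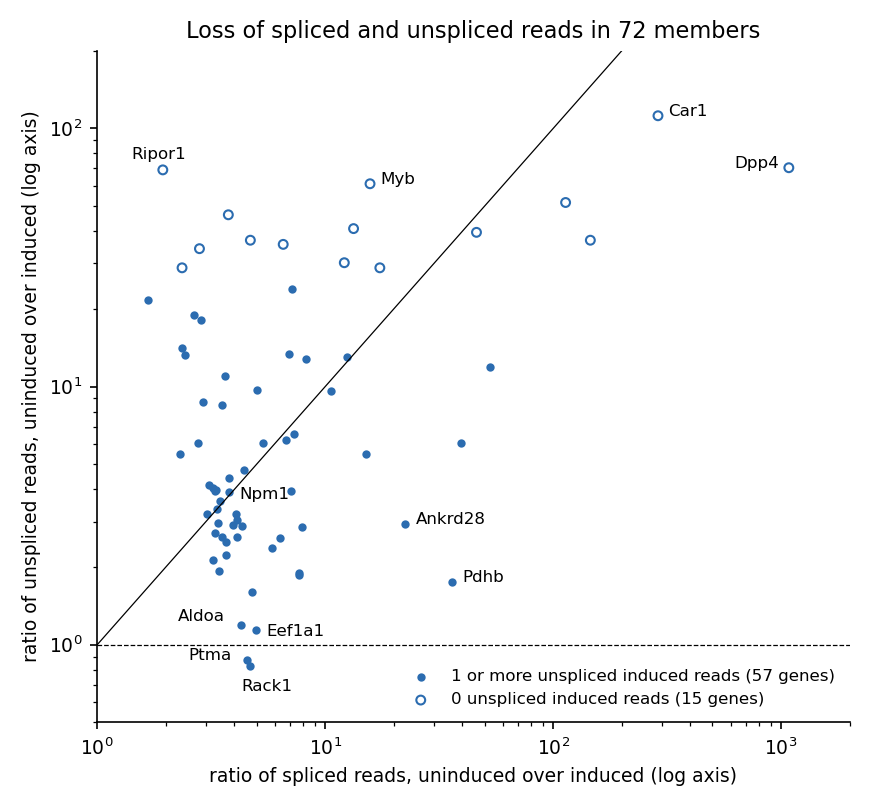
Ratio of spliced reads (across) and of unspliced reads (up), uninduced over induced with 0.5 added to each sum, on log axes, for 72 members with at least 20 unspliced reads. Open points had 0 unspliced induced reads, so their height depends on the 0.5 added; the solid line marks equal ratios and the dashed line a ratio of 1. Rack1 and Ptma lie under the dashed line, with Eef1a1 and Aldoa just above it.

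NIC could be compared at 36 introns of 9 members. By Fisher's exact test with Benjamini-Hochberg adjustment over the 2039 introns with NIC in both pools, 0 of 36 passed, against 0.0981% of all introns tested. An unadjusted p under 0.05 was found at 6 of the 36, and in all 6 NIC was higher in the induced pool. Of 2003 introns of other genes 28 had such a p, and 19 of these were higher after it; the difference from the members was not tested. The smallest adjusted p was 0.877, at intron 6 of Npm1, with 4 intermediates of 201 and 5 of 32. Next came intron 8 of Npm1 with 0 of 165 and 2 of 12, and intron 7 of Eef1a1 with 2 of 325 and 3 of 38. Intron 2 of Rack1 had 10 of 91 and 5 of 14, a NIC of 0.110 and 0.357 (unadjusted p 0.0279 by Fisher's exact test).

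With the reads of the 36 introns added, intermediates were 96 of 8027 before induction, 1.20% (interval 0.980 to 1.46), and 36 of 995 after it, 3.62% (interval 2.63 to 4.97). The same shares over 2003 introns of other genes were 2.30% and 3.83%. Among the members, the shares in Npm1 were 1.65% (interval 1.17 to 2.32) and 5.26% (interval 3.21 to 8.50), and in Aldoa 0.676% (interval 0.289 to 1.57) and 9.41% (interval 4.85 to 17.5). Rack1 had 2.64% (interval 1.55 to 4.47) and 9.72% (interval 4.79 to 18.7). In Eef1a1, which gave 3615 of the 8027 uninduced reads, the shares were 1.08% and 1.35%, with intervals that overlap. These gene sums were added after the data were seen and were not tested.

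The promoters of the members, 250 bases before to 50 after the start in RefSeq (GRCm38.p6), were searched on both strands for motifs that do not contain each other. A window was found for 124 of the 157 members. The E-box CACGTG was in 9.68% of member windows, 12.3% of the windows of 1194 other genes with at least 100 reads and 7.15% of all 32851 windows. The CCAAT box was in 41.9%, 42.2% and 37.4%, and the GC box GGGCGG in 67.7%, 68.2% and 35.7%. The TATA box TATAAA was in 8.87%, 6.28% and 13.6%, and Dpp4 was among the members that hold it. By these letters the member windows stood near those of the other genes read.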

How the data were processed

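Of 20 samples, 8 long-read samples (4 uninduced, 4 induced; 2 replicates, each on 2 instruments) enter through tables deposited by the authors with 1 pooled line per intron and condition. The condition lines were matched to those samples by the sample titles. Which runs were added, and how unspliced reads were merged, is not given in the sources used here. The first table holds raw counts of spliced and unspliced reads per intron, per the file headers. The second holds a deposited count of spliced reads and of splicing intermediates, the deposited fraction NIC, a deposited GC percent, and a deposited score and sequence for each splice site. The submitters' processing notes list cutadapt, minimap2, SAMtools, bedtools and Bowtie, with builds mm10 and dm3 and no versions or roles.

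coSE was computed as spliced over spliced plus unspliced reads. A gene is the 1 transcript the table gives for it, and a condition with no line was taken as 0 reads. Intron starts were moved up by 2 and ends down by 1 to give first and last intron bases; these fell on GENCODE M21 introns for 68768 of 68794 introns (99.96%); regions, symbols and overlapping genes come from that annotation. Introns needed at least 10 reads in each pool compared; Fisher's exact test (SciPy 1.17.1) was two-sided, with Benjamini-Hochberg adjustment over the whole table and a threshold of 0.05, and was tested on simulated reads. Wilson 95% intervals and a floor of 3 counts were used. No column counts molecular identifiers, so reads may not be independent molecules.

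Genes were named by rule: the 12 largest ratios, the 8 with most reads, members of a pathway list, members with an intron past the threshold, and 2 genes on each side of the ratio of 3. Some genes this rule takes in are not reported here. Introns were named if past the threshold, among the 5 largest coSE differences, the 5 lowest or 3 deepest in uninduced coSE, or the 5 highest in NIC at 20 or more reads. Non-members of a list and the introns shown for their first bases were named besides. The members, the gene lists and the rule were chosen with earlier results of these data known. Alternatives were other pseudocounts, read minimums, scalings and ratios, single introns, spliced reads only, and the chi-square test. The counting strand is not given in the sources used here, and 24 members overlap a coding gene on the opposite strand and 7 a coding gene on the same strand.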

Additional observations from a re-analysis of the deposited data

How the results depend on the processing

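No paired analysis was possible because replicates were pooled before deposit; leaving out a replicate and the replicate block were not run for the same reason. The number of members depended on the limits: 354 at 50 reads, 63 at 200 reads, 308 at a ratio of 2 and 92 at a ratio of 4, against 157. Dividing by the median gene left 146, and leaving globin, Rpl and Rps genes out of the total gave 178, all 157 included. The deepest intron alone gave 164 genes, 117 of them members. Of the 10 introns with lower coSE, 6 passed at a minimum of 5 reads and 5 with no minimum, where more introns were tested; Rack1 intron 1 and Eef1a1 introns 3 to 6 passed in all 4 alternatives, and Rack1 introns 2 and 3, Aldoa intron 6 and Eef1a1 intron 7 in 2. Under the chi-square test 2 introns passed for NIC, Npm1 intron 8 (adjusted p 0.000136) and Aldoa intron 3 (adjusted p 0.0201), each on 2 induced intermediates. The median induced coSE was 1 at a minimum of 5 reads and 0.882 at 20, where the median coSE difference was -0.03, against 0.954 and 0. As a mean over introns, uninduced NIC was 4.55% instead of 2.75%; the cause was not tested. With reads added together, the coSE difference was -0.0827, and -0.0220 without Eef1a1, Rack1 and Aldoa, a subset chosen after seeing the data. In all, 9 of the values that answer a comparison moved under an alternative and 20 did not. Depth limits the induced values: 75 members had under 20 induced reads.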

Other observations

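The members hold subunits of the respiratory chain and ATP synthase, picked out by symbol after the values were seen and given with no test. Of 27 such genes with at least 100 reads, 22 had a ratio above 1, beside 51.7% of all 1692 genes, and 10 were members, where 9.67% of all genes outside the Rpl and Rps families were. The median ratio over the 27 was 2.12, and since the read sums chose the members nothing is read from these counts. They include Ndufb5 (102 uninduced and 4 induced reads), Ndufa1 (86 and 14), Ndufa6 (95 and 20) and Ndufv2 (93 and 17) of NADH dehydrogenase, Cox6c (220 and 48) and Cox6b1 (94 and 19) of cytochrome c oxidase, and Atp5o (150 and 19) of ATP synthase. Sdha, the catalytic subunit of succinate dehydrogenase, had 207 and 44 reads. None of the 4 cytochrome bc1 subunits with enough reads was a member.

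Single members of other functions, likewise named after their values were seen, form no list and were not counted. Atm, the kinase that responds to DNA breaks, had 211 and 19 reads, Wrn, the Werner helicase, 376 and 74, and Fancd2, of the Fanconi pathway, 169 and 25. Aspm, a spindle pole protein, had 186 and 25 reads, Ect2, which directs cytokinesis, 272 and 30, and Kntc1, a kinetochore protein, 581 and 70.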
